A study of Mus musculus with 2 samples.

Results

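The genes of the interleukin-1 (IL-1) family were examined in nucleoplasmic RNA of mouse macrophages: the ligand genes Il1a, Il1b, Il18 and Il33, the antagonist genes Il1rn and Il18bp, and the receptor genes Il1r1, Il1r2 and Il1rap. They were chosen by symbol, and all 9 were found among the 55536 annotated genes of the deposited tables, with 37 annotated isoforms between them. Both libraries were ribosomal RNA-depleted total RNA from the nucleoplasm of bone marrow-derived macrophages (BMDM, macrophages grown from marrow in culture) of strain C57BL/6J. The cells had received lipid A at 100 ng/ml for 50 min, the only condition here. This lipid anchors lipopolysaccharide in the outer membrane of bacteria and is recognised by the receptor TLR4. The labels call the libraries biological replicates 1 and 2, give 1 donor identifier for both, and give 500 ng of input RNA for replicate 1 and 1 µg for replicate 2. Their text names the nucleoplasm, and their fraction field the nucleus. No other condition was analysed here, so no level shows a change caused by the treatment, and the spread over the 2 libraries is given as a description with no test.

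IL-1α and IL-1β, the products of Il1a and Il1b, bind the receptor IL1R1, which then recruits the accessory protein IL1RAP and signals through MyD88 to NF-κB. The product of Il1rn occupies the same receptor without signalling, and IL1R2 is a decoy that binds the ligands but lacks the signalling domain. IL-18 is held in check by the soluble binding protein encoded by Il18bp. IL-1β and IL-18 are made as precursors that caspase-1 cleaves in inflammasomes, while IL-33 is a nuclear alarmin best known from epithelial, endothelial and stromal cells. In macrophages Il1a and Il1b are classical genes of the TLR4 response.

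Expected counts in gene rows summed to 10342882 for replicate 1 and 20495545 for replicate 2. Levels are given as deposited TPM, transcripts per 1000000 scaled to transcript length, which allows genes to be compared. The median gene with a mean of at least 1 TPM was 1.62-fold higher in replicate 1 than in replicate 2, so a raw difference of that size between the libraries is shared with most genes. All 8 macrophage marker genes were above 1 TPM in both libraries, from Spi1 at 23.7 and 28.9 TPM to Lyz2 at 1461 and 1507 TPM. Of 34 marker genes of other cell types, 4 reached 1 TPM in both.

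Among the 9 genes the agonist ligands and the IL-1 receptor antagonist were high, Il18 and its binding protein intermediate, and the receptors low. From the highest mean TPM down, the genes were Il1b, Il1a, Il1rn, Il18, Il18bp, Il1r2, Il1rap, Il1r1 and Il33, and each library gave this order in the alignment-based TPM. The ranges of Il1r2 and Il1rap overlapped over the libraries, and the order of the receptor genes changed with the measure: per 1000000 counts Il1rap (8.88 and 5.56) was above Il1r2 (1.64 and 1.37), and in read-based TPM Il1rap was 1.33 and 0.992 times Il1r1. At 1 TPM or more in both libraries were 5 of the 9: Il1a, Il1b, Il1rn, Il18 and Il18bp. The same held for 38.7% of the 22015 protein-coding genes of the nuclear genome and for 18.6% of all annotated genes. Per 1000000 counts (CPM), with no division by length, 8 of the 9, all but Il33, reached 1 in both libraries, as did 45.5% of protein-coding and 21.8% of all genes. On the scale log2(TPM + 1), the median level of the 9 genes was 4.20 in replicate 1 and 3.32 in replicate 2. Over all protein-coding genes the median level was 0.41 and 0.31, and over the 8523 at 1 TPM or more in both it was 3.32 and 2.77. In bulk RNA, fewer cells that express a gene and less RNA per cell cannot be told apart.

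**Figure D1:**
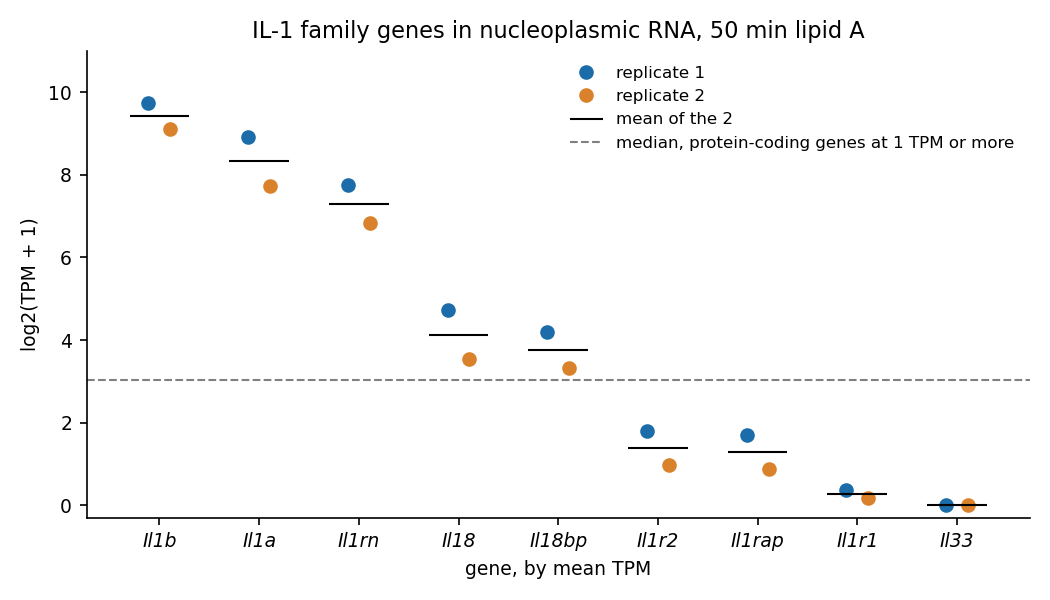
Level of each IL-1 family gene in the 2 libraries as log2(TPM + 1), ordered by mean TPM; bars are the mean of the 2 and the dashed line is the median of protein-coding genes at 1 TPM or more in both. Il1b, Il1a, Il1rn, Il18 and Il18bp lie above the dashed line in both libraries, and the 3 receptor genes and Il33 lie below it.

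Il1b (ENSMUSG00000027398.13) lies on the minus strand of mm10 chromosome 2 at chr2:129364570-129371139. It held 9337 and 17151 expected counts, or 847 and 554 TPM, in replicates 1 and 2. This placed it 19th and 18th among protein-coding genes (mean 701 ± 207 TPM, SD, n = 2). After the shift of the median gene was removed, replicate 2 differed from replicate 1 by 0.08 on the log2 scale, so Il1b followed the typical gene.

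Il1a (ENSMUSG00000027399.1), which lies near Il1b on the same strand (chr2:129299610-129309972), encodes the ligand that is active without caspase-1 cleavage. It held 9511 and 12871 expected counts, or 483 and 212 TPM (348 ± 191 TPM, SD, n = 2), and ranked 61st and 105th. Its level in replicate 2 was 0.49 lower on the log2 scale than the median shift predicts. The TPM of Il1b exceeded that of Il1a 1.76-fold in replicate 1 and 2.61-fold in replicate 2, and the 2 genes' ranges over the libraries did not overlap. This ratio rested in part on transcript length: per count, with no division by length, Il1b was 0.982 and 1.33 times Il1a. The genes thus drew about the same number of fragments in replicate 1, and Il1b drew more in replicate 2. The deposited TPM intervals of both genes, whose level the headers do not give, lay below their TPM in both libraries. They were 751 to 786 and 528 to 546 for Il1b, and 429 to 447 and 202 to 209 for Il1a. For Il1rn the TPM was above the interval in replicate 1 (186 to 204) and within it in replicate 2 (106 to 114).

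The promoters of both ligand genes are shown because both genes ranked near the top. Sequences are the 250 bases before the RefSeq start on GRCm38.p6, the assembly that mm10 names, read 5′ to 3′ on the minus strand, at chr2:129309973-129310222 for Il1a and chr2:129371140-129371389 for Il1b. Capitals mark matches on either strand to the core promoter box TATAAA, to the AP-1 frame TGANTCA or to an NF-κB-like frame of GGG, any 5 bases and CC.
Il1a: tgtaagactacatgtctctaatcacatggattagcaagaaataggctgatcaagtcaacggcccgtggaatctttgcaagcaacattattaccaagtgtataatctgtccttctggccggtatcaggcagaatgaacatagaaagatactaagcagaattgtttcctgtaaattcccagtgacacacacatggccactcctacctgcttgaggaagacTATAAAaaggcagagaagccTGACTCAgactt
Il1b: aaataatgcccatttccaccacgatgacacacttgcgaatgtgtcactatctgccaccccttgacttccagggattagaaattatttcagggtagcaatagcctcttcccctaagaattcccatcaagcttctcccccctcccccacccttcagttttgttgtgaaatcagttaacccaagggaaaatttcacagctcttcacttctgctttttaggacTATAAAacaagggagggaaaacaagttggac
TATAAA began 32 bases before the start of Il1a and 31 before that of Il1b, and Il1a also held TGANTCA 12 bases before its start. Among 32851 RefSeq promoter windows of this length, 12.4% held TATAAA, 45.8% the NF-κB-like frame and 6.75% TGANTCA. The 9 genes had 13 such windows. The others with TATAAA were those of Il18 (175 bases before the start, matched on the opposite strand) and both of Il33 (203 and 29). Apart from a window of Il1rn, no other held TGANTCA. The NF-κB-like frame was found in windows of Il1rn, Il1r1 and Il1rap. A match is only a run of letters, and binding was not measured.

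Il1b had a share of RNA assigned to an isoform that keeps an intron, which cannot be told apart here from RNA not yet spliced. Its coding isoform Il1b-201 has 7 exons, 1356 nt and 269 codons, and took 652 and 347 TPM, or 77.0% and 62.6% of the gene's isoform TPM (69.8% ± 10.2, SD, n = 2). Il1b-203, annotated as a retained intron, joins exon 1 to exon 2 and runs on through the 532 nt of intron 2 (chr2:129369752-129370283). It took 192 and 195 TPM, or 22.6% and 35.1% (28.9% ± 8.81, SD, n = 2), and rested on 1010 and 3312 counts. In the read-based table its TPM was 161 and 51.7, so the near-equal TPM in the libraries held in the alignment-based table only. The sequences at this boundary are shown because they are what separates the forms: the last bases of exon 2 in lower case, followed in Il1b-201 by exon 3 and in Il1b-203 by the intron in capitals.
Il1b-201: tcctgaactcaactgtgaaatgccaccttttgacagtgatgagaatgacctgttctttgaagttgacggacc
Il1b-203: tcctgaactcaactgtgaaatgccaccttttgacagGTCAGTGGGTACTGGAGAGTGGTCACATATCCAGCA
The kept intron opens with GT, the usual 5′ splice site.

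A further short isoform, Il1b-202 (379 nt, a processed transcript), has 3 exons, of which the first and last are shorter than in Il1b-201. It differs in sequence at exon 6, where 19 more bases precede the exon (chr2:129366091-129366109, capitals). All its other bases lie in exons of Il1b-201.
Il1b-201: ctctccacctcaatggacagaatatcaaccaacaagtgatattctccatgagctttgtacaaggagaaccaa
Il1b-202: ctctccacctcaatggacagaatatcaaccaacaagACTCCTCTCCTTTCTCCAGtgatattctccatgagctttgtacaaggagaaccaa
The 2 deposited quantifications disagreed on this isoform. The one made from alignments to transcripts gave Il1b-202 0.397% and 2.33% of the gene's isoform TPM, from 6.03 and 84.9 counts. The one made from the reads gave it 25.0% and 26.9%, from 910 and 1831 estimated counts (909.65 and 1830.54 before rounding). Il1b-203 was closer between them, with 22.2% and 27.1% in the read-based table.

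Isoforms not annotated as protein-coding held 23.0% and 37.4% of Il1b TPM. The background was protein-coding genes of the nuclear genome with a mean of at least 1 TPM that have such an isoform. Their median share was 31.0% in replicate 1 (7677 genes) and 33.7% in replicate 2 (7675 genes), which put Il1b at percentiles 39.7 and 55.3. In the read-based table the share of Il1b was 47.2% and 54.1%, at percentiles 51.1 and 63.0 of the same kind of share, and by counts it was 10.9% and 19.8%. The share itself thus depended on the measure by more than the spread between libraries, and its percentile lay between 39.7 and 63.0 in the 2 tables. The antisense gene Il1bos overlaps Il1b, with 25 exonic bases, all of them inside the kept intron, and had 193 and 372 counts (11.1 and 7.03 TPM). The processed transcript Gm14023 lies opposite Il1a with 222 exonic bases shared and 1741 and 2845 counts (99.3 and 52.6 TPM). The strand setting is not given in the sources used here, so reads of these partners cannot be told apart with certainty from those of Il1b and Il1a.

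Il1rn (ENSMUSG00000026981.15), the IL-1 receptor antagonist gene, lies on the plus strand at chr2:24336853-24351494. It held 3207 and 4610 expected counts, or 214 and 113 TPM (163 ± 71.1 TPM, SD, n = 2), and ranked 185th and 238th. Il1a was higher within each library (2.26-fold and 1.88-fold), but the lower value of Il1a and the higher value of Il1rn met at 212 and 214 TPM, so the ranges overlapped. The summed TPM of Il1a and Il1b was 6.23 times that of Il1rn in replicate 1 and 6.79 times in replicate 2. The read-based quantification gave 5.01 and 5.19 for this ratio and counts gave 5.88 and 6.51. Agonist RNA thus exceeded antagonist RNA in each measure, by a smaller factor in the read-based table. The totals of Il1b and Il1rn include isoforms not annotated as protein-coding.

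Il1rn has 2 annotated start regions 8435 bp apart, and they give different proteins. The upstream region serves Il1rn-203, Il1rn-204 and Il1rn-205, and Il1rn-204 codes for the intracellular antagonist of 159 codons. The downstream region serves Il1rn-201, Il1rn-202 and Il1rn-206, and Il1rn-201 codes for the secreted precursor of 178 codons. The coding starts are shown, with the bases specific to each form in capitals and the shared exon, from position 24345520, in lower case. Il1rn-204 has 10 coding bases of its own (from position 24336983) and Il1rn-201 has 67 (from position 24345453), which encode the start of its signal peptide.
Il1rn-204: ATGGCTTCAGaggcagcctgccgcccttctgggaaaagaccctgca
Il1rn-201: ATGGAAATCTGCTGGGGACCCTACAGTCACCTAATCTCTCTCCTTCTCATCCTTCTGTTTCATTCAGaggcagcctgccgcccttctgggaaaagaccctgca
Isoforms of the downstream start held 78.2% and 84.7% of Il1rn TPM (81.4% ± 4.59, SD, n = 2), and the read-based table gave 82.6% and 81.0%. Those of the upstream start held 21.8% and 15.3%, or 46.6 and 17.3 TPM. By counts the upstream share was 36.9% and 29.3%. Each measure thus assigned most Il1rn RNA to isoforms of the downstream start, though no measure read the start itself. Of their 167 and 95.7 TPM, 84.7 and 55.9 TPM were in Il1rn-206, which is not annotated as protein-coding. In Il1rn-201 and Il1rn-206, bases before the shared exon lie in an intron of Il1rn-204. The last exon of Il1rn-206 lies in the next intron of Il1rn-204. Unspliced RNA from the upstream start therefore cannot be told apart from these isoforms there. Between the coding isoforms, Il1rn-201 took 82.0 and 39.4 TPM and Il1rn-204 took 43.6 and 15.3 TPM, a ratio of 1.88 and 2.58 (2.99 and 4.64 in the read-based table).

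The windows before the Il1rn starts are shown for comparison, from the plus strand at chr2:24336610-24336859 (upstream) and chr2:24345041-24345290 (downstream), with the same motifs in capitals.
Il1rn upstream: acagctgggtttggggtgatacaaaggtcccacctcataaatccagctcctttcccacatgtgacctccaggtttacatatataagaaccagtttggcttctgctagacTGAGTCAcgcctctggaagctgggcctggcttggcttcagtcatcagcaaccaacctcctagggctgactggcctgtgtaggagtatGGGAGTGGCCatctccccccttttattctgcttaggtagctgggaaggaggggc
Il1rn downstream: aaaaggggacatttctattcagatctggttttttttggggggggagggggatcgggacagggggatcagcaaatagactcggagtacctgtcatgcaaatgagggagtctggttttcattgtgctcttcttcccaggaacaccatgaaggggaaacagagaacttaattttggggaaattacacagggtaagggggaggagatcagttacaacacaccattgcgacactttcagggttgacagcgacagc
The upstream window held TGANTCA 141 bases and the NF-κB-like frame 54 bases before the start. The downstream window held none of the 3 motifs. A RefSeq start a little further downstream has a window with the NF-κB-like frame 51 bases before it.

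The isoform of highest mean TPM was neither of the coding forms. Il1rn-206, a processed transcript of 636 nt, begins near the downstream start and ends within the next intron. Its last exon lies wholly within an intron of Il1rn-201 and Il1rn-204. RNA not yet spliced, from either start, cannot be told apart from this isoform there. Il1rn-206 took 84.7 and 55.9 TPM. This was 39.7% and 49.5% of Il1rn TPM (44.6% ± 6.97, SD, n = 2), but only 12.3% and 18.5% of its counts, 396 and 852. In the read-based table it led as well, with 53.0% and 55.8%. Il1rn-201 followed with 38.4% and 34.9% of TPM, and it led by counts with 1627 and 2404. Which isoform led thus depended on whether values were divided by length. The short Il1rn-205 was at 0 in the alignment-based table and held 6.85% and 12.9% in the read-based one. Noncoding isoforms made up 41.1% and 51.3% of Il1rn TPM, at percentiles 62.7 and 73.4 of the genes described above for Il1b, and 53.7% and 56.7% in the read-based table, at percentiles 59.2 and 66.2.

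**Figure D2:**
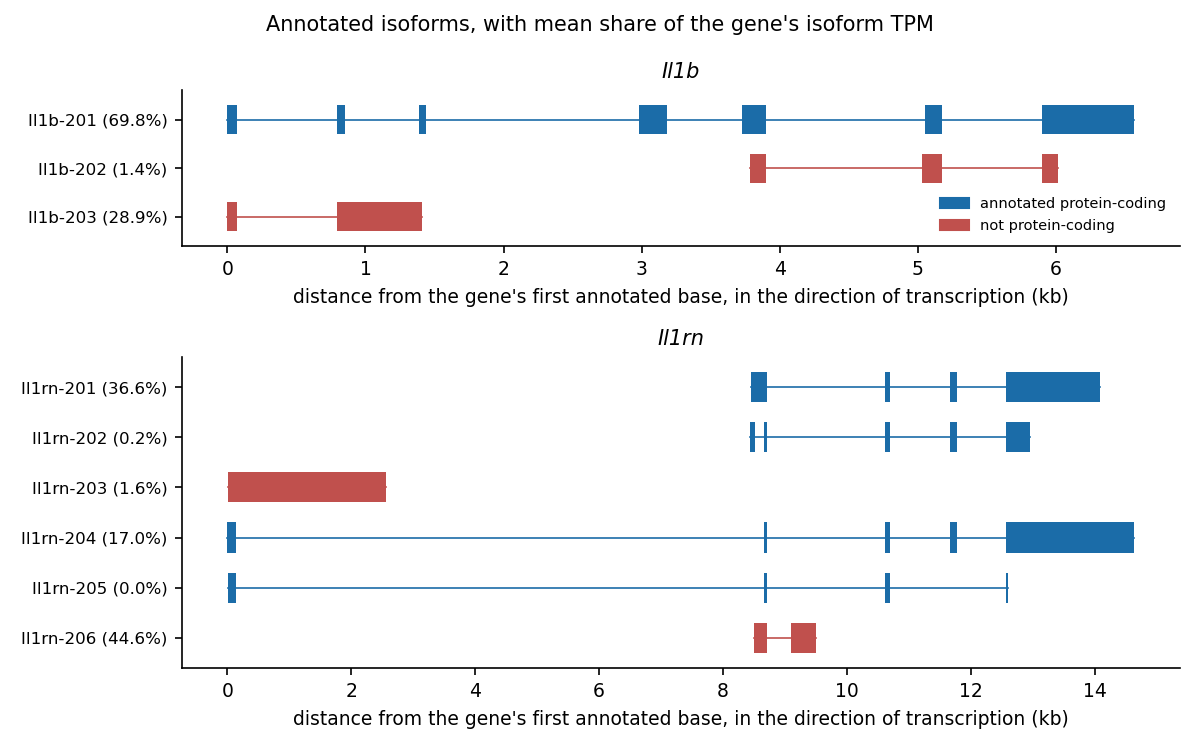
Exons (boxes) and introns (lines) of the annotated isoforms of Il1b and Il1rn by distance in kb from the first annotated base, with the mean share of isoform TPM in brackets. Il1b-203 covers the second intron of Il1b-201, and Il1rn isoforms start either at the left edge or in a region from 8435 bp further right. In that region Il1rn-202 begins first, and Il1rn-201 (36.6%) and Il1rn-206 (44.6%) begin within 60 bp of it.

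Il18 (ENSMUSG00000039217.13, plus strand, chr9:50554827-50581840) held 143 and 207 expected counts, or 25.6 and 10.6 TPM (18.1 ± 10.6 TPM, SD, n = 2). Il1b was 33.2 and 52.2 times higher in TPM, so the ligands that depend on caspase-1 stood far apart in this RNA. Il18bp (ENSMUSG00000070427.4, minus strand, chr7:102014885-102018690) had 299 and 488 counts, or 17.4 and 8.97 TPM (13.2 ± 5.93 TPM, SD, n = 2). In TPM the ligand exceeded its binding protein 1.47-fold and 1.18-fold, with ranges that overlapped between the libraries. In counts, without length, it was the other way round, with Il18 at 0.478 and 0.424 of Il18bp. The direction thus depended on whether values were divided by length. Numa1 shares 80 exonic bases with Il18bp on the opposite strand and was higher (30.6 and 15.0 TPM). Bco2 and Tex12 lie opposite Il18 without shared exonic bases, at 0.89 and 0.44 TPM and at 2.73 and 1.71 TPM.

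Il18-201 and Il18-202 are alike except for alternative exons of 12 nt, at chr9:50577537-50577548 and chr9:50576694-50576705. Both transcripts have 702 nt and 192 codons, and they differ at 7 positions. The alternative exon is in capitals.
Il18-201: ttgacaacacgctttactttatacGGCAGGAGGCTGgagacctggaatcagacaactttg
Il18-202: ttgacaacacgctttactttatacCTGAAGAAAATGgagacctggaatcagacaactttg
The split of reads between them was not resolved. In replicate 1 each took 62.8 counts and 11.6 TPM, and in replicate 2 Il18-202 took all 120 counts and Il18-201 took 0. The deposited intervals, whose level the headers do not give, for the TPM of Il18-201 (0.42 to 20.7 in replicate 1, 0 to 3.82 in replicate 2) and of Il18-202 (0.05 to 19.9 and 1.97 to 7.74) overlapped in each library. The read-based table assigned reads to Il18-202 but not Il18-201 in replicate 1, and the reverse in replicate 2. Together the pair held 90.8% and 64.8% of Il18 TPM, and 63.4% and 22.0% in the read-based table. Il18-203, of 78 codons, held 7.16% and 15.4%, and Il18-204, with an upstream start and 192 codons, 2.07% and 19.9%. In the read-based table Il18-203 held 14.7% and 31.5% and Il18-204 held 21.9% and 46.5%, so Il18-204 led in replicate 2 of that table.

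All named isoforms of Il18bp encode nearly the same length of protein, 193 or 194 codons. Il18bp-203 led with 71.3% and 56.2% of TPM (63.7% ± 10.7, SD, n = 2), against 57.6% and 42.7% in the read-based table. Il18bp-202 followed with 18.8% and 25.0%, and Il18bp-201 with 9.97% and 18.8%.

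**Figure D3:**
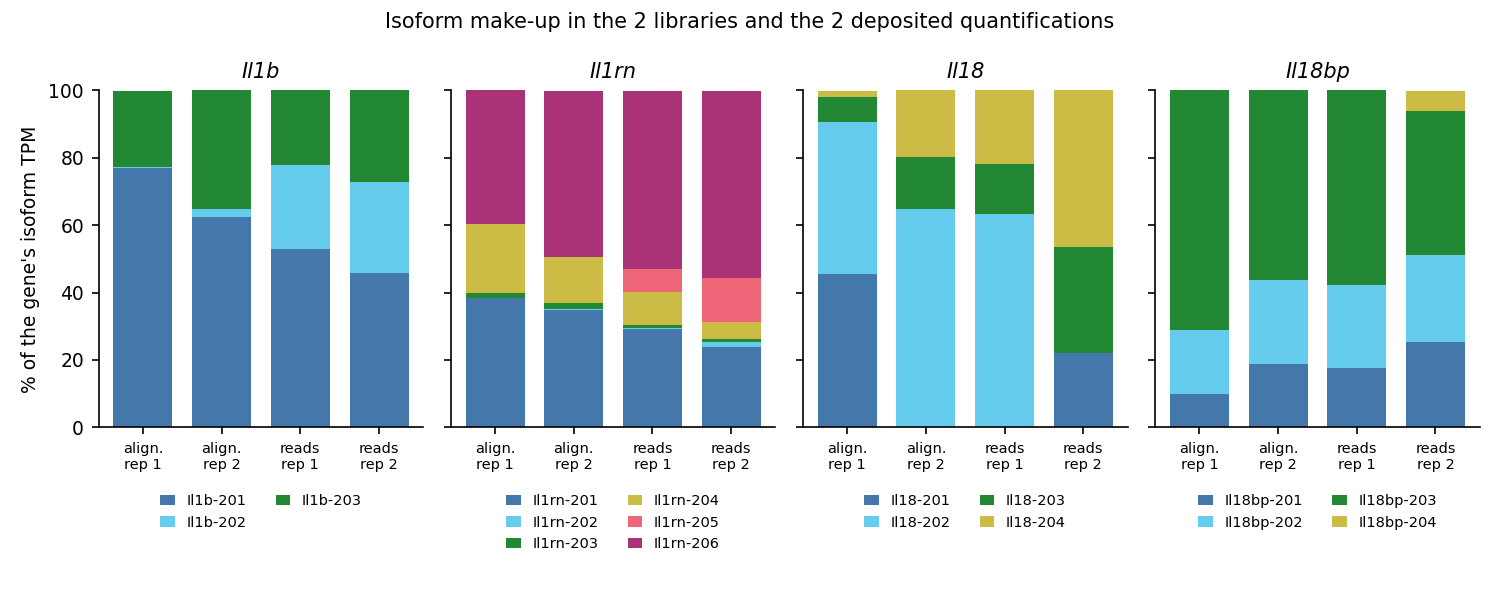
Percent of isoform TPM for Il1b, Il1rn, Il18 and Il18bp in both libraries, from the alignment-based (align.) and the read-based (reads) deposited tables. For Il1b the light blue Il1b-202 is near 0 in the alignment-based bars and 25.0% and 26.9% in the read-based bars, and for Il18 the leading isoform changes between bars.

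Il33 (ENSMUSG00000024810.16, plus strand, chr19:29925114-29960718) had 0 counts in both libraries. A count of 0 allows up to 0.290 CPM (counts per 1000000) in replicate 1 and 0.146 CPM in replicate 2, taking 3 counts as the limit. The read-based table gave it 4 and 1 estimated counts. Of 8 stromal and endothelial marker genes, the cell types in which Il33 is best known, 1 reached 1 TPM in both libraries (Kdr, 3.90 and 3.43 TPM), and the 8 summed to 5.16 and 3.80 TPM. Il33 RNA was therefore at or below what this depth can show.

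The receptor genes were low. Il1rap (ENSMUSG00000022514.14, plus strand, chr16:26581704-26730117), the shared accessory chain, had the most counts of the 3, with 91.8 and 114, or 2.28 and 0.85 TPM (1.57 ± 1.01 TPM, SD, n = 2). Il1rap-201, a membrane-bound form of 570 codons, took 66.4% and 81.2% of TPM (73.8% ± 10.5, SD, n = 2), and the read-based table gave 71.0% and 80.5%. Il1rap-206, a shorter form of 360 codons, took 32.3% and 17.6%, from 17.2 and 10.7 counts. Both quantifications gave Il1rap-201 the larger share in both libraries. The form with the most codons, Il1rap-202 of 685 codons, took 1.31% and 1.18%. The antisense gene Gm20319 shares 552 exonic bases with Il1rap and had 2.17 and 0 counts.

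Il1r1 (ENSMUSG00000026072.12, plus strand, chr1:40225080-40317257), the signalling receptor, had 15 and 23 counts, or 0.29 and 0.13 TPM (0.21 ± 0.11 TPM, SD, n = 2). Per 1000000 counts this was 1.45 in replicate 1 (95% exact binomial interval 0.812 to 2.39) and 1.12 in replicate 2 (0.711 to 1.68). Il1r2 (ENSMUSG00000026073.13, plus strand, chr1:40074079-40125231), the decoy, had 17 and 28 counts, or 2.48 and 0.96 TPM (1.72 ± 1.07 TPM, SD, n = 2). Its CPM was 1.64 (0.957 to 2.63) and 1.37 (0.908 to 1.97), so the counting intervals of decoy and signalling receptor overlapped in each library. These intervals cover counting error only.

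In TPM, Il1r2 was 8.55 and 7.38 times Il1r1, yet in counts the ratio was 1.13 and 1.22, and in read-based TPM 1.40 and 1.80. Much of the Il1r2 TPM in replicate 1 came from Il1r2-203, a partial transcript of 366 nt, which took 48.8% and 16.7% of Il1r2 TPM from 2 counts and 1 count. The full coding form of 410 codons, Il1r2-201, took 30.2% and 31.3%, and Il1r2-204, annotated as a target of nonsense-mediated decay, 20.97% and 52.1%. An excess of decoy over signalling receptor RNA therefore held in TPM but was not resolved by counts. Il1r2 is also known as a neutrophil gene. Of 10 neutrophil marker genes 3 reached 1 TPM in both libraries (Mmp8 2.14 and 1.69, Ltf 1.78 and 1.56, S100a8 1.67 and 1.27 TPM), Ly6g was at 0, and the 10 summed to 7.21 and 6.72 TPM. Their part in the Il1r2 value was not tested.

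The annotation places same-strand features of a class still awaiting experimental evidence inside both receptor genes. Gm38070, in an intron of Il1r1, had 129 and 161 counts, more than Il1r1 itself, and Gm37347, in Il1r2, had 7 and 21. The antisense gene Gm16894, within the span of Il1r2 on the opposite strand, had 1 and 3. The read-based table gave Il1r1 80 and 88 counts, 5.33 and 3.83 times the alignment-based number. For the median gene that factor was 1.84 and 1.34, so Il1r1 was the member on which the quantifications differed most among those with counts in both.

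The replicates were compared for the 7 genes with a mean of at least 1 TPM, which excludes Il1r1 and Il33. After division by the median ratio all 7 were within 2-fold between the libraries, as were 93.3% of protein-coding genes and 88.9% of all genes with such a mean. The remaining difference ran from 0.08 on the log2 scale for Il1b, higher in replicate 2, to −0.73 for Il1rap, lower in replicate 2. Between them lay Il1rn at −0.23, Il18bp at −0.26, Il1a at −0.49, Il18 at −0.57 and Il1r2 at −0.68. So 6 of the 7 were lower in replicate 2 than the median shift, as were 47.4% of protein-coding genes and 49.6% of all genes with such a mean.

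**Figure D4:**
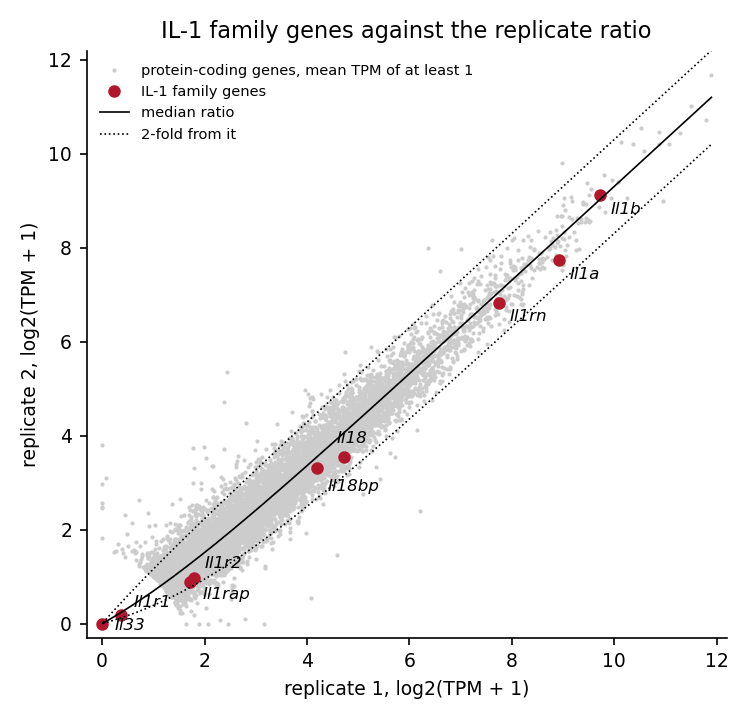
Level in replicate 2 against replicate 1 as log2(TPM + 1) for protein-coding genes at a mean of 1 TPM or more (grey) and the 9 IL-1 family genes (red); the solid line is the median ratio and dotted lines are 2-fold from it. Il1b lies on the median line, and the other genes above 1 mean TPM lie below it within the dotted lines.

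The other genes of the pathway were taken from lists of 39 genes in 4 roles. Of 5 further ligand genes of the family none reached 1 TPM in both libraries. Il36a, Il36b and Il1f10 had 0 counts, Il36rn had 0 and 1, and Il36g, an epithelial ligand, had 4 and 16 counts (0.25 and 0.32 TPM). Ligand genes outside the 9 were thus at or near 0. Of 7 further receptor genes 1 reached 1 TPM in both, Il1rl2, the receptor of the IL-36 ligands, at 2.72 and 2.00 TPM. Il18rap, the accessory chain of the IL-18 receptor, was at 1.18 and 0.34 TPM and Sigirr, an inhibitory receptor, at 0.62 and 0.18 TPM. Il1rapl1 and Il1rapl2 had 0 counts. Il18r1, the chain that binds IL-18, had 0 and 2 counts, so the RNA of the ligand Il18 was well above that of its receptor here.

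The median signalling gene downstream of the receptors was above each of the 3 receptor genes. Of 14 such genes 13 reached 1 TPM in both libraries, with medians of 17.5 and 10.3 TPM. The highest were the kinase gene Irak2 (117 and 75.2 TPM), the ubiquitin ligase gene Peli1 (119 and 57.1 TPM) and the adaptor gene Tab2 (55.8 and 28.6 TPM), and the lowest were Tab3 (1.17 and 1.20 TPM) and Peli3 (0.75 and 0.85 TPM). TLR4 uses many of the same proteins. Of 13 genes for processing and release all reached 1 TPM in both, with medians of 27.1 and 19.1 TPM. The inflammasome sensor gene Nlrp3 led at 589 and 324 TPM, between Il1a and Il1b in each library. Next were Casp4 (248 and 162 TPM) and the DNA sensor gene Aim2 (87.8 and 39.5 TPM). The lowest were Nlrc4 (7.97 and 4.06 TPM) and Pycard, the inflammasome adaptor gene (2.76 and 2.60 TPM).

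**Figure D5:**
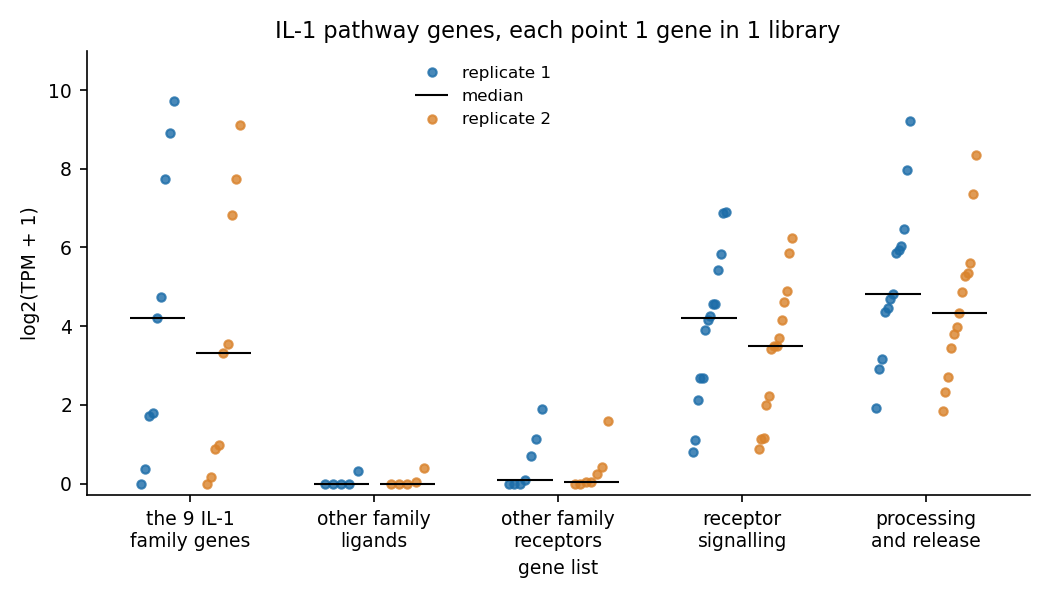
Level of each gene as log2(TPM + 1) in each library for the 9 IL-1 family genes and the 4 pathway lists, with the median as a bar; each point is 1 gene. Points of other ligands lie near 0, those of other receptors lie near 0 apart from Il1rl2 (2.72 and 2.00 TPM) and, in replicate 1, Il18rap and Sigirr, and those of signalling and of processing genes have medians of 17.5 and 27.1 TPM in replicate 1.

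The protein-coding genes with levels closest to the 3 highest members were listed by Euclidean distance in log2(TPM + 1) over the 2 libraries, which measures likeness of level only. For Il1b these were Tnfaip3 (distance 0.208), Grn (0.215) and Fth1 (0.225). For Il1a they were Zc3h7a (0.125), Ccnl1 (0.127) and Rgs1 (0.136), and for Il1rn they were Msn (0.0171), Msr1 (0.0591) and Plaur (0.0736).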

How the data were processed

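Per the file headers and the deposited readme files, in the authors' gene and transcript tables the values are expected counts and TPM, from alignments to transcripts, and a further deposited transcript table holds estimated counts and TPM made from the reads, all on mm10 with annotation M21. The programs and the strand setting were not given in the sources read for this work. Spike-in rows and rows that name no gene (0.504% and 0.0968% of counts) were left out of CPM. Python 3.11.15, pandas 2.3.3 and scipy 1.17.1 were used to compute log2(TPM + 1), CPM, isoform shares, ranks, exact binomial intervals and the replicate ratio. Gene models came from the GENCODE M21 annotation and promoters from RefSeq, in which all 9 genes were matched. With 1 group of 2 libraries no test was run, and p-values are not given. The calculation of the replicate ratio was tested on simulated data, and the other steps were not.

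Named were all 9 genes, their isoforms with at least 10% of TPM in either library and table, genes overlapping them, the 3 highest and 2 lowest of each pathway list, lists of 5 or fewer in full, and the 3 nearest genes by level for the 3 highest members. Other names, such as Il1rn-202, Il1rn-203, Il1rap-202, Il18rap, Sigirr, Il18r1 and marker genes, were added after their values were seen. The genes and lists were chosen with earlier results of these data known. Alternatives were CPM, TPM rescaled over protein-coding genes, the read-based table, a pseudocount of 0.1, a filter on low values and leaving out each library.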

Additional observations from a re-analysis of the deposited data

How the results depend on the processing

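With 2 libraries in 1 group, settings were compared by whether a value moved by more than 1 SD between libraries. The order of Il18 and Il18bp reversed with CPM, where Il18bp minus Il18 was 1.09 on the log2 scale against −0.38 in TPM, and was −0.64 in the read-based table. Il1b minus Il1a was 0.19 with CPM (−0.03 in replicate 1) and 1.54 in the read-based table, against 1.10. Il1rn minus the summed agonists was −2.34 in the read-based table, against −2.69. Il1r2 minus Il1r1 was 0.13 with CPM, 2.11 with rescaled TPM, 0.23 in the read-based table and 2.47 with a pseudocount of 0.1, against 1.11. The median level of the 9 genes was 5.91 with rescaled TPM and 2.52 in the read-based table, against 3.76, and 8 members reached 1 CPM in both libraries and 7 reached 1 TPM with rescaled TPM, against 5 at 1 TPM. The isoform of highest mean TPM held by counts 84.7% in Il1b and 84.6% in Il1rap, and 15.4% in Il1rn and 7.67% in Il1r2, where other isoforms had more counts. In the read-based table the isoform of highest mean alignment-based TPM held 49.4% in Il1b, 54.4% in Il1rn, 31.7% in Il18 and 50.2% in Il18bp. CPM does not divide by length, and the cause of the differences between the tables was not tested. All 7 members with a mean of at least 1 TPM stayed within 2-fold, as did 8 of 8 with CPM and 5 of 5 in the read-based table. Leaving out 1 library gives the other library's value, printed in the report, and 5 to 7 members at 1 TPM or more. No paired analysis was possible because there is 1 group. Depth limits the receptor genes, with 15 to 28 counts for Il1r1 and Il1r2, and Il33.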
